A study of Mus musculus with 12 samples.

Results

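The genes described here are those whose response to loss of STAT3 differed between Tc17 and Tc1 cells. Members were set by a contrast over all 12 of the 12 arrays of the study: the STAT3-/- minus WT difference in Tc17 cells, minus the same difference in Tc1 cells. This difference of differences, the interaction, is on the log2 scale, so that a value of 1 means that the genotype fold changes of the 2 cell types differed by a factor of 2. A positive interaction means that STAT3-/- over WT was higher in Tc17 than in Tc1, and a negative one that it was lower. Of 9862 genes tested, 676 (6.85%) were called, at an adjusted p under 0.05 in limma.

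The groups were Tc17 STAT3-/-, Tc17 WT, Tc1 STAT3-/- and Tc1 WT, each of 3 arrays. All cells were mouse CD8+ T cells from spleen, sorted as naive cells and activated with anti-CD3 (1 µg/ml) and anti-CD28 (3 µg/ml). Tc17 cells received IL-6 and TGFb and Tc1 cells IL-12 for 3 days, and every group then had 1 day with IL-2, 4 days in all. The mutant cells carried a floxed Stat3 allele and a Cre recombinase driven by Cd4 (Cd4cre+ STAT3fl/fl), so the gene is lost during T cell development and not only in culture. WT and mutant cells had shared a culture, mixed in equal parts before activation, and were separated at the end by allelic surface markers, so both genotypes shared the same medium. The labels do not give the number of animals or cultures, or the animals' age. RNA was measured from bulk cells, in which fewer cells of a kind and less RNA per cell cannot be told apart.

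IL-6 binds a receptor made of IL-6Rα and gp130, and Janus kinases bound to it phosphorylate STAT3, which pairs up, enters the nucleus and binds DNA. Together with TGF-beta signals, STAT3 drives the type 17 program of T cells, with IL-17A, IL-17F and IL-21 as its cytokines and RORα, BATF and c-Maf among its regulators. IL-12, used for Tc1 cells, acts mainly through STAT4 and drives T-bet, interferon gamma and cytotoxic granule genes.

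Each group had 2 biological arrays and 1 technical array, which was averaged with biological array 2, giving 2 samples per group and 8 in all. Array medians lay between 3.95 and 4.10. The Tc17 WT technical array stood apart from the rest, with a median correlation of 0.933 with the other arrays over the tested genes, against at least 0.961 for each of the others. The SD of differences between 2 biological arrays of a group was 0.144 to 0.192, and between biological array 2 and the technical array 0.209 to 0.352. The technical arrays therefore add a spread to the second sample of each group that may be technical, and the p-values cover no more than the spread of these 8 samples, since separate cultures or animals are not stated.

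Stat3 itself was lower in the mutant cells of both cell types, and its interaction was not called. Its log2 value was 7.80 and 7.76 in Tc17 STAT3-/- samples, against 10.72 and 10.53 in Tc17 WT samples. In Tc1 it was 7.67 and 7.07 in STAT3-/- samples, against 10.13 and 9.94 in WT samples. Every STAT3-/- sample lay below every WT sample of both cell types, with an interaction of -0.19 ± 0.25 (SE, adjusted p = 0.67 in limma). The annotation does not say whether the probes lie inside the deleted part. Only 6 genes (0.0608%) were called for STAT3-/- against WT within Tc1, and for these the log2 differences in Tc17 and in Tc1 were close. Ctse, the protease cathepsin E, differed by -3.23 in Tc17 and -3.38 in Tc1, Abhd17b by -2.85 and -3.21, and Mid1, a ubiquitin ligase, by 2.85 and 3.36. Nt5e, the ectoenzyme CD73, differed by -1.01 in Tc17 and -1.30 in Tc1, and Bckdhb, a subunit of an amino acid dehydrogenase, by 1.38 and 1.08. None of the 6, Stat3 included, was called for the interaction in limma, with adjusted p from 0.33 to 0.67. These genes, other than Stat3, were named after their values were seen, as were some list members given below only to complete a count. The gene lists used below were also written with earlier results of these data known.

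**Figure D1:**
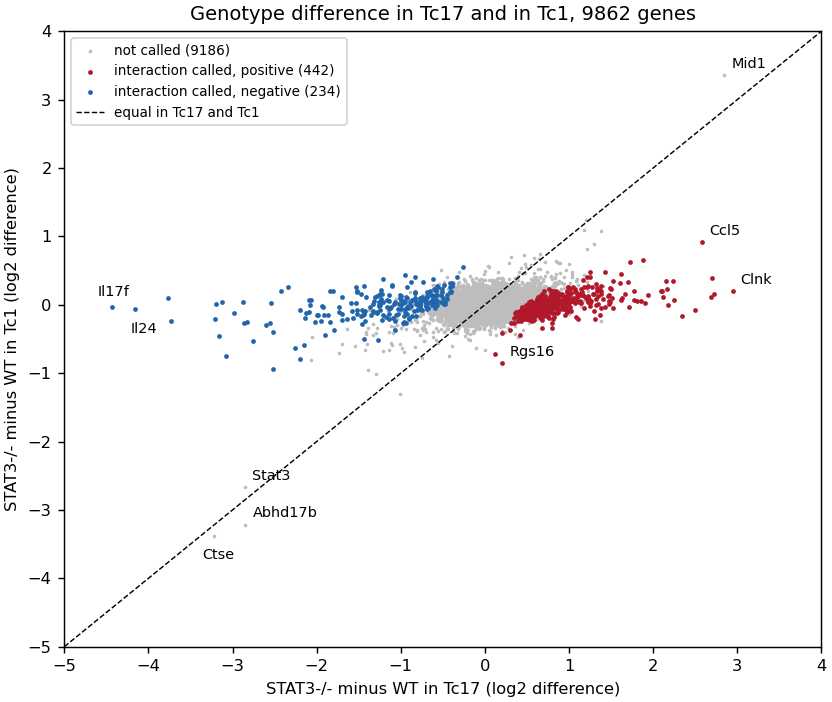
Each point is a gene, with the STAT3-/- minus WT difference in Tc17 on the x axis and in Tc1 on the y axis, both in log2 units. Genes called for the interaction (676) spread along the x axis at Tc1 differences near 0, and Stat3, Ctse, Abhd17b and Mid1 lie near the dashed line of equal differences.

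The calls comprised 442 genes with a positive interaction (4.48% of tested genes) and 234 with a negative one (2.37%). At an unadjusted p under 0.05 there were 2379 genes. STAT3-/- against WT within Tc17, a contrast that shares the 4 Tc17 samples with the interaction, gave 2473 called genes (25.1%); 18.2% of tested genes were called higher and 6.83% lower in STAT3-/-. Positive interactions ran from 0.47 to 2.75 (median 0.76) and negative ones from -4.40 to -0.48 (median -1.02). Changes of at least 1 log2 unit were seen in 218 called genes (2.21%), 94 positive and 124 negative. The share of positive calls depended on scaling, as did the median interaction over all tested genes, which was 0.12 as deposited and 0 to 0.19 over the scalings. Positive calls were 65.4% as deposited, 73.5% after each array's median over all probe sets was subtracted, 53% after quantile normalization, 47% after cyclic loess and 42.2% after the median of the tested genes was subtracted. The sizes of the interactions below are therefore to be read beside 0.12. The limma tests, the calls and the signs given below compare with 0. The count also rested on single samples: 250 and 244 genes were called without the first or second Tc17 STAT3-/- sample, 1555 and 609 without the first or second Tc17 WT sample, 361 and 363 without either Tc1 STAT3-/- sample and 290 and 328 without either Tc1 WT sample.

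In most called genes the Tc17 WT group was the one that stood apart. Among genes with a negative interaction, the Tc17 WT mean was the one farthest from the other 3 groups, and above them, in 206 of 234. The medians over these 206 genes were 5.95 in Tc17 STAT3-/-, 7.14 in Tc17 WT, 5.85 in Tc1 STAT3-/- and 5.84 in Tc1 WT. Among genes with a positive interaction, Tc17 WT was farthest and below the rest in 381 of 442, with medians of 7.30 in Tc17 STAT3-/-, 6.41 in Tc17 WT, 7.37 in Tc1 STAT3-/- and 7.33 in Tc1 WT. Taking both directions, Tc17 WT stood apart in 86.8% of called genes, and in 62.7% of all genes tested. The Tc17 STAT3-/- group stood apart in 56 genes, above the rest, and in 26, below the rest. A Tc1 group stood apart in 7 called genes. These counts describe the same values that gave the calls and carry no test. Of the 234 genes with a negative interaction, 42 reached the level required for testing only in Tc17 WT. Of the 442 with a positive one, 14 reached it only in Tc17 STAT3-/-. Over all 9862 tested genes, 211 reached it only in Tc17 WT and 54 only in Tc17 STAT3-/-. In such genes that group has to be the highest, so its place above the rest is partly set by the level filter.

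The same contrast can be read as the Tc17 minus Tc1 difference in STAT3-/- cells, less that in WT cells. For 592 of the 676 genes (87.6%) the distance between Tc17 and Tc1 was smaller in STAT3-/- cells than in WT cells. Both distances come from the values that gave the calls, so the split carries no test. The same share over all tested genes was not counted, so 87.6% cannot be read as particular to the called genes. In 64 genes the difference changed sign and was wider in STAT3-/- cells, and in 20 it kept its sign and was wider. The median Tc17 minus Tc1 difference of genes with a negative interaction was -0.09 in STAT3-/- cells, against 0.92 in WT cells, and that of genes with a positive interaction was 0.07 in STAT3-/- cells, against -0.66 in WT cells. Over all tested genes, 204 (2.07%) were called for Tc17 against Tc1 in STAT3-/- cells, with 1.05% higher and 1.01% lower in Tc17, and 2468 (25%) in WT cells, with 7.01% higher and 18% lower in Tc17.

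**Figure D2:**
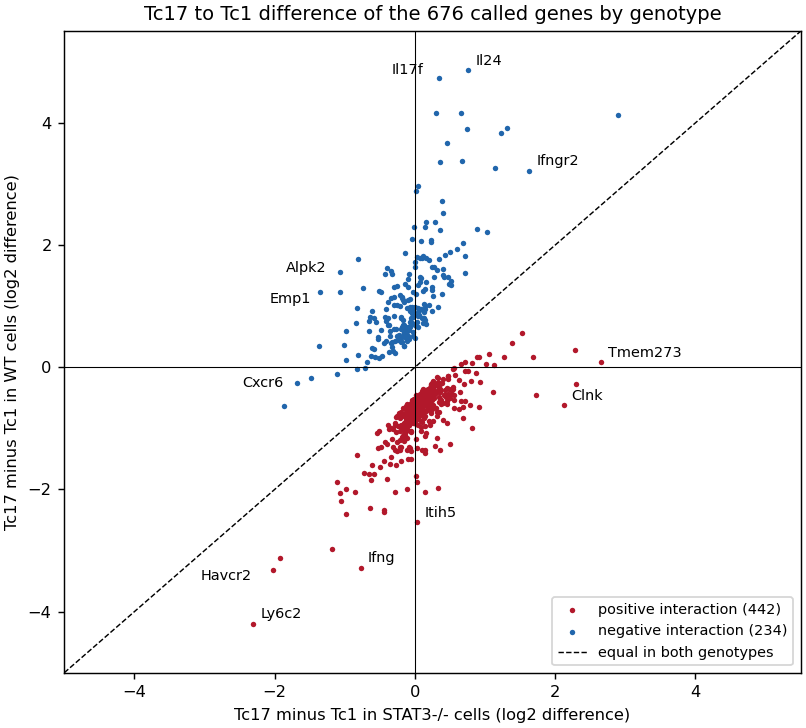
Tc17 minus Tc1 log2 differences of the 676 called genes, in STAT3-/- cells on the x axis and in WT cells on the y axis. Most points lie close to the vertical line at 0 and far from the horizontal one, while Ly6c2, Havcr2 and Ifngr2 keep a difference of at least 1.63 log2 units in STAT3-/- cells, and Clnk and Tmem273 one of at least 2.13 that WT cells do not have in that direction or size.

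Type 17 cytokine genes were among those with the most negative interactions. Il17a was 4.63 and 4.48 in Tc17 STAT3-/- samples and 7.90 and 8.76 in Tc17 WT samples, and between 4.13 and 4.33 in all 4 Tc1 samples. Il17f was 4.80 and 5.05 in Tc17 STAT3-/- samples and 8.88 and 9.83 in Tc17 WT samples, against 4.59 and 4.58 in Tc1 STAT3-/- and 4.77 and 4.46 in Tc1 WT. Il21, a cytokine that type 17 cells make and respond to, was 3.72 and 3.73 in Tc17 STAT3-/- and 6.61 and 6.60 in Tc17 WT, and 3.60 to 3.69 in Tc1. In all 3 genes both Tc17 WT samples lay above every other sample, and the Tc17 STAT3-/- samples were close to the Tc1 level. The interactions were -3.87 ± 0.32 (SE, adjusted p = 0.00028) for Il17a, -4.40 ± 0.36 (adjusted p = 0.00028) for Il17f and -2.92 ± 0.12 (adjusted p = 8.6e-06) for Il21. These genes reached the level required for testing, a group mean of 5, only through Tc17 WT. Of the 10 genes of this list, Il17d was the other one tested (-0.03, adjusted p = 0.90), and Il22, Il23r, Il1r1, Ccl20, Csf2 and Il17c stayed below 5 in every group. On the technical arrays alone the interaction was wider, -4.91 for Il17a and -5.71 for Il17f, against -3.47 and -3.63 (Il17a) and -3.90 and -4.09 (Il17f) on biological arrays 1 and 2.

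**Figure D3:**
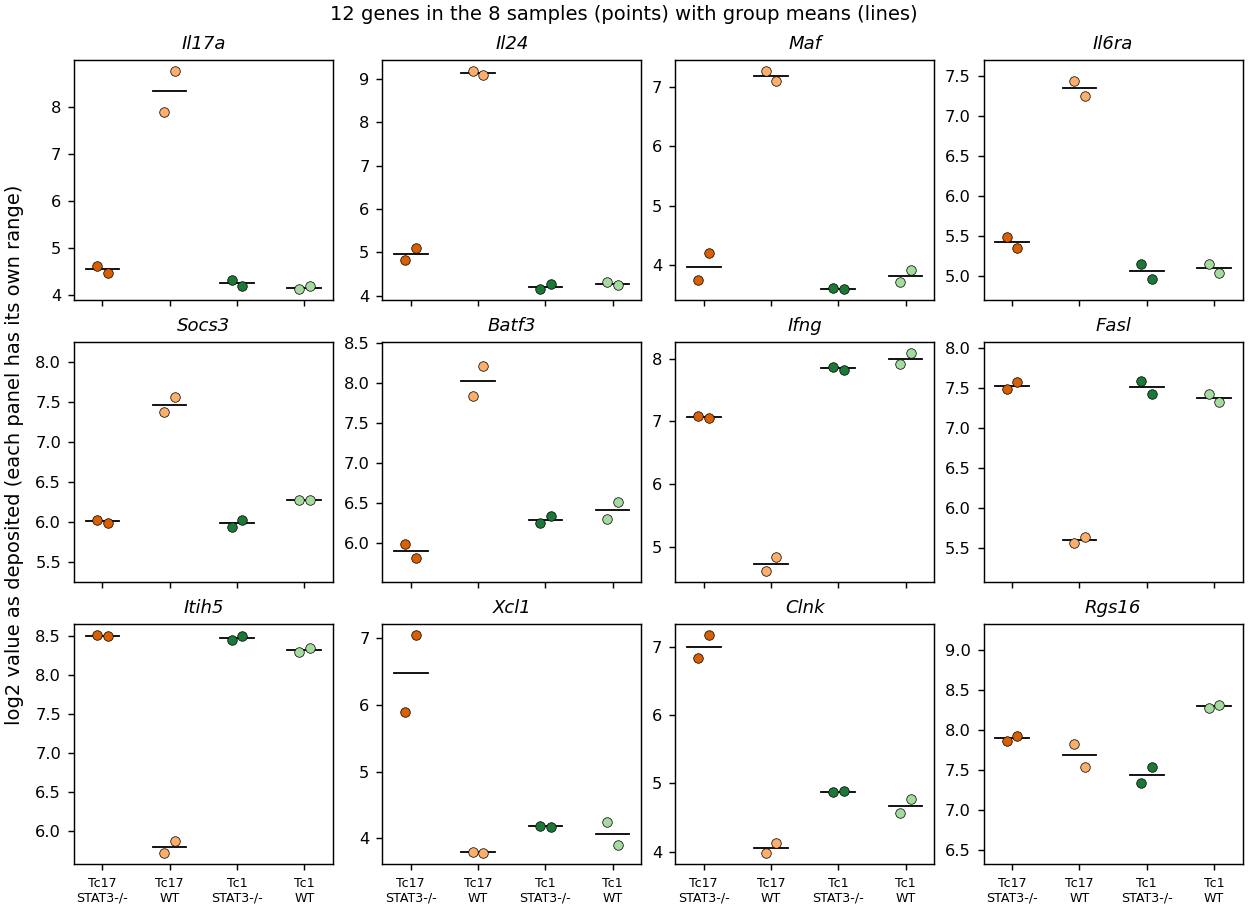
Log2 values of 12 genes in each of the 8 samples (points) and group means (lines), with Tc17 STAT3-/-, Tc17 WT, Tc1 STAT3-/- and Tc1 WT from left to right and a separate vertical range per panel. In the first 6 panels the Tc17 WT samples are highest, in Ifng, Fasl and Itih5 they are lowest, in Xcl1 and Clnk the Tc17 STAT3-/- samples are highest, and in Rgs16 the Tc1 WT samples are highest.

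Of 12 tested transcription factors and other type 17 regulators, 6 were called with a negative interaction and 1 with a positive one. The median was -0.73, with 2 to 8 negative and 0 to 1 positive calls over the alternatives. The positive call, Ikzf3, was lost under cyclic loess, quantile normalization and subtraction of the median of the tested genes. Maf, which encodes c-Maf, was 3.75 and 4.21 in Tc17 STAT3-/- samples and 7.27 and 7.10 in Tc17 WT samples, against 3.62 and 3.60 in Tc1 STAT3-/- and 3.72 and 3.93 in Tc1 WT. Its interaction was -3.00 ± 0.21 (adjusted p = 0.00016), and it too passed the level filter only through Tc17 WT. Rora, which encodes the nuclear receptor RORα, was 5.58 and 5.49 in Tc17 STAT3-/- samples and 6.59 and 6.41 in Tc17 WT samples, and 5.37 to 5.75 in Tc1. The Rora groups did not overlap in Tc17 and did in Tc1, and the interaction was -1.0 ± 0.19 (adjusted p = 0.017). Hif1a, the oxygen-regulated factor that favours type 17 cells, was 9.01 and 8.93 in Tc17 STAT3-/- and 9.82 and 9.90 in Tc17 WT, against 9.20 to 9.35 in Tc1. Its interaction of -0.93 was -0.49 (adjusted p = 0.20) when all probe sets of the gene were averaged. Tmem176b, an ion channel gene that passed the level filter only through Tc17 WT, had -1.27 (adjusted p = 0.026, up to 0.0843 and not called with 6 of the 8 samples left out in turn), with values of -0.71 and -1.07 on the biological arrays and -2.60 on the technical ones. To complete the count, Batf had -0.65 and Irf4, its partner at shared DNA sites, had -0.50, and Ikzf3, an Ikaros family factor, had 0.50. Ahr, the aryl hydrocarbon receptor, was higher in Tc17 than in Tc1 in both genotypes, with means of 6.36 in Tc17 STAT3-/-, 7.23 in Tc17 WT, 5.03 in Tc1 STAT3-/- and 4.98 in Tc1 WT, and its interaction was not called (-0.92, adjusted p = 0.051).

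Feedback and target genes of STAT signalling split by member, with 4 of 17 tested genes called with a negative interaction and 1 with a positive one (median -0.19, 2 to 7 negative calls over the alternatives). Socs3, the inhibitor that STAT3 induces and that shuts off the IL-6 receptor, was 6.03 and 5.99 in Tc17 STAT3-/- samples and 7.37 and 7.56 in Tc17 WT samples. In Tc1 it was 5.94 and 6.03 in STAT3-/- samples and 6.27 in both WT samples. The genotypes did not overlap in either cell type, but the Tc1 difference was small (-0.28, not called) and the interaction was -1.17 ± 0.13 (adjusted p = 0.0016). Bcl3, an atypical IκB protein, showed the same order: 7.82 in both Tc17 STAT3-/- samples, 9.25 and 9.26 in Tc17 WT samples, 7.92 and 7.79 in Tc1 STAT3-/- samples and 8.53 and 8.19 in Tc1 WT samples, with an interaction of -0.93 ± 0.17 (adjusted p = 0.014). Fosl2 had -1.52 ± 0.13 and Gadd45g, a stress-induced regulator of p38 signalling, -0.92. Socs2, an inhibitor induced mainly by STAT5, went the other way, with 8.70 and 8.61 in Tc17 STAT3-/- samples and 7.63 and 7.75 in Tc17 WT samples, against 8.19 and 8.32 in Tc1 STAT3-/- and 8.28 in both Tc1 WT samples (0.99 ± 0.13, adjusted p = 0.0037). Socs1, Cish, Myc and Ccnd2 were not called, with interactions between -0.17 and 0.09.

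STAT dimers bind the palindrome TTCNNNGAA. It was searched in the 250 bases before each gene start of the RefSeq promoter table (GRCm38.p6); since it reads the same on both strands, 1 strand covers both. It was present for 19 of the 178 genes with a negative interaction that had an entry (10.7%), for 30 of 345 with a positive one (8.70%) and for 568 of all 7870 tested genes with an entry (7.22%), and 7.02% of all 32841 windows of that length in the table held it. Genes with a negative interaction also had more listed starts per gene (1.35) than all tested genes (1.26), which gives more windows to search. Of the 30 named genes with a negative interaction and an entry, 4 held the motif, and their windows are shown because they pair the motif with the measured difference. They lie at chr6:135362681-135362930 on the plus strand (Emp1), chr1:191098164-191098413 on the plus strand (Batf3), chr11:117969367-117969616 on the minus strand (Socs3) and chr4:152116093-152116342 on the plus strand (Tnfrsf25). The motif starts at -120 and -22 in Emp1, -239 in Batf3, -154 in Socs3 and -16 in Tnfrsf25, counted from the listed gene start. Sequences run 5′ to 3′ on the gene's strand and end at the base before the start, with the motif in capitals.
Emp1: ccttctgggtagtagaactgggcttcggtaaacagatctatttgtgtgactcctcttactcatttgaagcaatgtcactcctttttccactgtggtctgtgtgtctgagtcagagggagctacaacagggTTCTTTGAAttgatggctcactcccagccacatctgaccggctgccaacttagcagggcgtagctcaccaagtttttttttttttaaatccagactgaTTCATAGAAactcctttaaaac
Batf3: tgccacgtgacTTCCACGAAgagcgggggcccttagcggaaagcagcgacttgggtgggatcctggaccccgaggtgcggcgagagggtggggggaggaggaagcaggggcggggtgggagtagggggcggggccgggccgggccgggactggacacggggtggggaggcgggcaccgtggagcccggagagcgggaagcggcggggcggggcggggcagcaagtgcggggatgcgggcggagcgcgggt
Socs3: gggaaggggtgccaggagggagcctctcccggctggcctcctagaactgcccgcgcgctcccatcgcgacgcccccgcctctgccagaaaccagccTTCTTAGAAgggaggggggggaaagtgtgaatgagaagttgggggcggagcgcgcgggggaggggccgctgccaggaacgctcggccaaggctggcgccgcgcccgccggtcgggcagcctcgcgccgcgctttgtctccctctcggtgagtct
Tnfrsf25: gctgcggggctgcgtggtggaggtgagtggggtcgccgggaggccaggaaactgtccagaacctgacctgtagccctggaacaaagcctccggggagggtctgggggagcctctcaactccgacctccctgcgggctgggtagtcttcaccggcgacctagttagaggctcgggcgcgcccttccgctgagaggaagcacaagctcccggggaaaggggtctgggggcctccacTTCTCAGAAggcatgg
A match describes the letters of this window and does not show binding, and no such match says nothing about the factor.

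Il24, Lif and Il3 were also highest in Tc17 WT. Il24, an IL-10 family cytokine, was 4.82 and 5.11 in Tc17 STAT3-/- samples and 9.18 and 9.08 in Tc17 WT samples, against 4.15 and 4.27 in Tc1 STAT3-/- and 4.31 and 4.24 in Tc1 WT. Lif, an IL-6 family cytokine, was 6.03 and 5.98 in Tc17 STAT3-/- samples and 8.86 and 8.88 in Tc17 WT samples, against 4.89 and 4.67 in Tc1 STAT3-/- and 5.30 and 4.79 in Tc1 WT. Il3, a growth factor of blood cell precursors, was 3.72 and 3.68 in Tc17 STAT3-/- samples and 5.54 and 6.02 in Tc17 WT samples, and 3.34 to 3.68 in Tc1. In STAT3-/- cells the Tc17 minus Tc1 difference was 0.76 for Il24 and 1.22 for Lif, both called, and 0.14 for Il3, not called. The interactions were -4.10 ± 0.16 (adjusted p = 8.6e-06) for Il24, -2.60 ± 0.22 (adjusted p = 0.00028) for Lif and -2.16 ± 0.24 (adjusted p = 0.0012) for Il3. These were 3 of 9 tested cytokine genes of the IL-10 family, type 2 and growth factor list, and none of the 9 was called with a positive interaction (2 to 6 negative calls over the alternatives). Il24 and Il3 passed the level filter only through Tc17 WT.

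Of 22 tested cytokine receptor genes, 3 were called with a negative interaction and 1 with a positive one (median -0.04, between -0.15 and 0.03 over the scalings, with 2 to 5 negative and 0 to 3 positive calls over the alternatives). Il6ra, the chain that binds IL-6, was 5.49 and 5.36 in Tc17 STAT3-/- samples and 7.44 and 7.26 in Tc17 WT samples, against 5.16 and 4.97 in Tc1 STAT3-/- and 5.16 and 5.04 in Tc1 WT (-1.89 ± 0.16, adjusted p = 0.00028). Il6st, which encodes gp130, the signalling chain, was not called (0.20, adjusted p = 0.61). Ifngr2, the signalling chain of the interferon gamma receptor, was 7.34 and 7.20 in Tc17 STAT3-/- samples and 8.49 and 8.47 in Tc17 WT samples, against 5.66 and 5.62 in Tc1 STAT3-/- and 5.15 and 5.38 in Tc1 WT. Both Tc17 groups lay above both Tc1 groups for this gene. The genotypes lay in opposite order in Tc17 and in Tc1, but the Tc1 difference was not called (0.37, adjusted p = 0.81). On biological array 2 of Tc1 alone, STAT3-/- (5.5) lay below WT (5.74). The Ifngr2 interaction was -1.58 ± 0.15 (adjusted p = 0.00047). Ifngr1, the chain that binds the cytokine, was not called (0.20, adjusted p = 0.33). Tgfbr3, a TGF-beta co-receptor, had -0.63, a call lost in 8 of 22 alternatives. Il10rb, a shared chain of IL-10 family receptors, had 0.57, a call lost in 9, and there were 0 positive calls in this list under cyclic loess and after the median of the tested genes was subtracted.

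Among genes of lipid mediators, 3 of 7 tested were called with a negative interaction and 0 with a positive one, all 3 of them receptors. Cysltr1, a receptor for cysteinyl leukotrienes, was 4.80 and 4.67 in Tc17 STAT3-/- samples and 8.52 and 8.42 in Tc17 WT samples, and 3.96 to 4.40 in Tc1. Cysltr2, the other receptor of that kind, was 4.79 and 4.51 in Tc17 STAT3-/- samples and 6.53 and 6.44 in Tc17 WT samples, against 4.99 and 4.82 in Tc1 STAT3-/- and 5.49 and 4.82 in Tc1 WT. Ltb4r1, a receptor for leukotriene B4, was 5.0 and 4.95 in Tc17 STAT3-/- samples and 6.99 and 6.84 in Tc17 WT samples, and 5.19 to 5.48 in Tc1. Cysltr1 passed the level filter only through Tc17 WT. The Tc17 WT samples were the highest for all 3 receptors, with interactions of -3.50 ± 0.16 (adjusted p = 1.6e-05), -1.59 ± 0.27 (adjusted p = 0.012) and -1.92 ± 0.16 (adjusted p = 0.00028), in the order named. The other 4 tested members, the prostaglandin receptors Ptger2, Ptger4 and Ptgir and the enzyme Lta4h, were not called.

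Genes of matrix, proteases and calcium-binding proteins had 4 negative and 2 positive calls among 17 tested (4 to 5 and 1 to 3 over the alternatives). Ecm1, a secreted matrix protein, was 5.11 and 5.25 in Tc17 STAT3-/- samples and 8.23 and 8.51 in Tc17 WT samples, and 4.55 to 4.86 in Tc1 (-3.21 ± 0.19). Igfbp4, which binds insulin-like growth factors, was 6.21 and 6.22 in Tc17 STAT3-/- samples and 9.24 and 9.44 in Tc17 WT samples, and 5.33 to 5.55 in Tc1 (-3.15 ± 0.15). Tgm2, a transglutaminase that crosslinks proteins, was 6.76 and 6.36 in Tc17 STAT3-/- samples and 9.97 and 9.48 in Tc17 WT samples, against 5.89 and 5.87 in Tc1 STAT3-/- and 6.49 and 6.19 in Tc1 WT (-2.70 ± 0.26). All 3 had Tc17 WT far above the other groups, with adjusted p of at most 0.00057, and Anxa3, an annexin, had -2.33. Slc4a11, a membrane transporter that passed the level filter only through Tc17 WT, was 4.80 and 4.86 in Tc17 STAT3-/- samples and 7.85 and 7.78 in Tc17 WT samples, and 4.81 to 5.05 in Tc1 (-2.87 ± 0.14). Alpk2, an alpha-kinase, was 5.55 and 5.45 in Tc17 STAT3-/- samples and 7.72 and 8.13 in Tc17 WT samples, against 6.69 and 6.45 in Tc1 STAT3-/- and 6.29 and 6.43 in Tc1 WT. Its Tc17 STAT3-/- samples lay below all Tc1 samples, and the interaction of -2.63 was -1.46 when its probe sets were averaged.

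Among AP-1, EGR and NR4A factors, which T cell receptor signals induce, 5 of 16 tested genes were called with a negative interaction and 0 with a positive one (median -0.36, 2 to 7 negative calls over the alternatives). Batf3, an AP-1 factor, was 5.98 and 5.81 in Tc17 STAT3-/- samples and 7.84 and 8.21 in Tc17 WT samples, against 6.25 and 6.33 in Tc1 STAT3-/- and 6.30 and 6.51 in Tc1 WT (-2.01 ± 0.19, adjusted p = 0.00056). Fosl2 was 7.81 and 7.82 in Tc17 STAT3-/- samples and 9.31 and 9.14 in Tc17 WT samples, against 8.44 and 8.41 in Tc1 STAT3-/- and 8.33 and 8.29 in Tc1 WT (adjusted p = 0.00028). In both genes the Tc17 STAT3-/- samples were below the Tc1 samples as well as below Tc17 WT. Atf3 (-0.86), Nr4a2 (-0.74) and Batf (-0.65) were the other calls, of which Nr4a2 was lost in 12 of 22 alternatives, the one without technical arrays included (adjusted p up to 0.157). On the technical arrays alone Atf3 had -0.19, against -0.94 and -1.37 on biological arrays 1 and 2. Jun, Junb, Egr1 and Nr4a1 were not called, with interactions from -0.48 to 0.12.

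**Figure D4:**
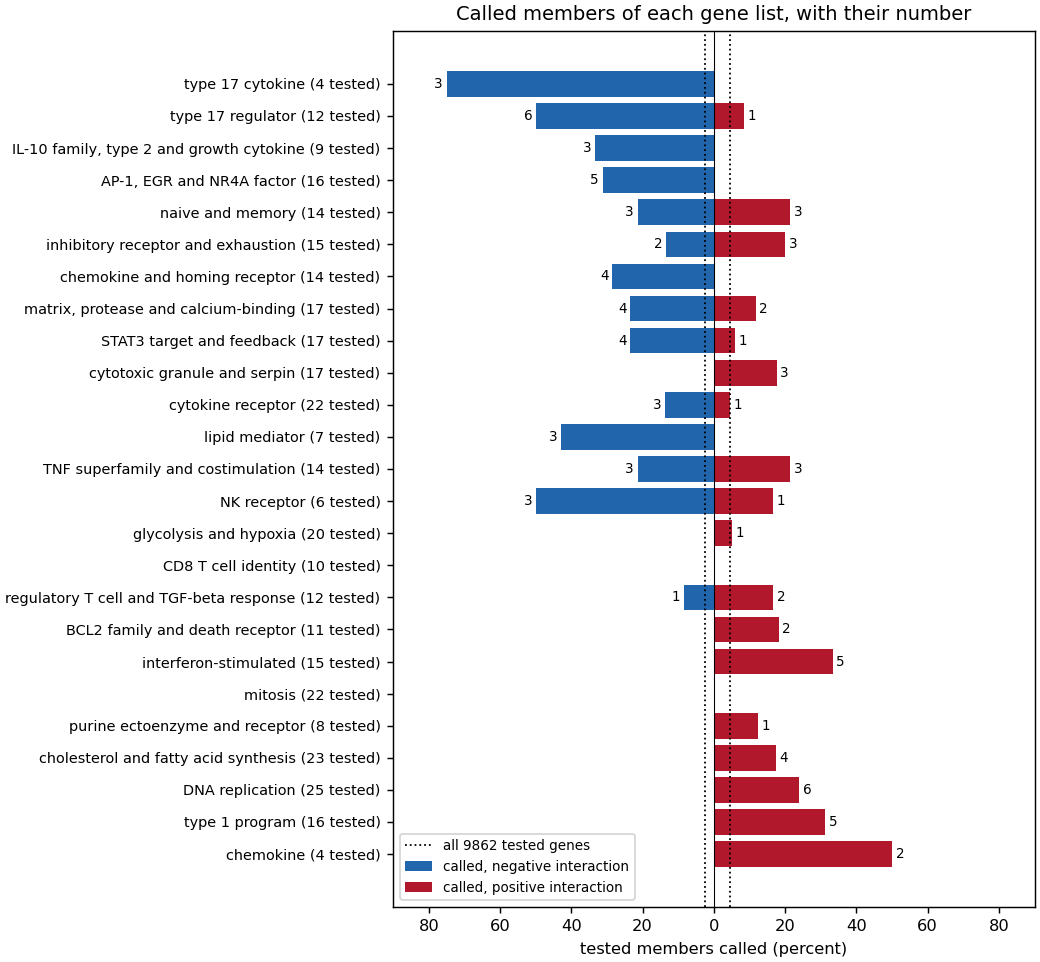
Percent of the tested members of each gene list that were called with a negative interaction (bars to the left) or a positive one (bars to the right), with the number of genes at the bar ends and lists ordered by their median interaction. Dotted lines mark the shares over all 9862 tested genes, 2.37% and 4.48%. The lists were written with earlier results of these data known, so a share beyond these lines carries no test. The type 17 cytokine bar at the top stands for 3 of 4 genes that were tested only through their Tc17 WT level, and the chemokine bar at the bottom for 2 of 4.

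Genes of the type 1 program were called on the positive side, with 5 of 16 tested genes called with a positive interaction, 0 with a negative one and a median of 0.53 (0.42 to 0.60 over the scalings, with 3 to 7 positive calls over the alternatives). Ifng, the main type 1 cytokine, was 7.08 and 7.05 in Tc17 STAT3-/- samples and 4.61 and 4.83 in Tc17 WT samples, against 7.87 and 7.82 in Tc1 STAT3-/- and 7.91 and 8.09 in Tc1 WT. Tc17 WT was the low group, and the Tc17 STAT3-/- samples remained below Tc1 by 0.78, a called difference, where WT Tc17 cells were below by 3.28 (interaction 2.50 ± 0.15, adjusted p = 5.9e-05). Fasl, the death ligand of cytotoxic cells, was 7.49 and 7.57 in Tc17 STAT3-/- samples and 5.56 and 5.64 in Tc17 WT samples, and 7.33 to 7.59 in Tc1 (1.80 ± 0.13, adjusted p = 0.00020). Prdm1, which encodes the effector factor Blimp-1, was 8.09 and 8.15 in Tc17 STAT3-/- samples and 6.81 and 6.48 in Tc17 WT samples, and 8.15 to 8.46 in Tc1 (1.33 ± 0.19, adjusted p = 0.0048). For Fasl the Tc17 STAT3-/- samples lay within the range of Tc1. Tbx21, which encodes T-bet, was 6.83 and 6.77 in Tc17 STAT3-/- samples and 6.30 and 6.04 in Tc17 WT samples, and 7.12 to 7.19 in Tc1, with an interaction of 0.64 ± 0.15 (adjusted p = 0.036) that was lost when any sample other than those of Tc17 WT was left out (adjusted p up to 0.149). Irf1, a factor induced by interferon, had 0.62. Eomes, a factor related to T-bet, was 5.47 and 5.27 in Tc17 STAT3-/- samples and 4.82 and 4.57 in Tc17 WT samples, against 6.53 and 6.04 in Tc1 STAT3-/- and 6.32 and 6.23 in Tc1 WT, and was not called (0.66, adjusted p = 0.12), though it was in 5 of 22 alternatives (adjusted p from 0.0136 to 0.33). Il18r1, a receptor chain for IL-18, had means of 5.41 in Tc17 STAT3-/-, 5.5 in Tc17 WT, 7.99 in Tc1 STAT3-/- and 7.75 in Tc1 WT, a wide distance between the cell types that was similar in size in both genotypes (interaction -0.32, adjusted p = 0.34).

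Of 4 tested chemokine genes 2 were called, both positive. Ccl5, a chemokine of effector and memory CD8 T cells, was 8.27 and 7.78 in Tc17 STAT3-/- samples and 5.72 and 5.16 in Tc17 WT samples, against 8.65 and 8.67 in Tc1 STAT3-/- and 7.82 and 7.67 in Tc1 WT. STAT3-/- samples lay above WT samples in both cell types, by 2.59 in Tc17 and by 0.91 in Tc1, where it was not called (adjusted p = 0.46). The interaction was 1.67 ± 0.28 (adjusted p = 0.010). Xcl1, a chemokine that attracts cross-presenting dendritic cells, was 5.90 and 7.05 in Tc17 STAT3-/- samples and 3.80 and 3.78 in Tc17 WT samples, against 4.19 and 4.17 in Tc1 STAT3-/- and 4.24 and 3.90 in Tc1 WT. Only the Tc17 STAT3-/- samples reached 5, and they differed from each other: the interaction of 2.58 ± 0.42 (adjusted p = 0.0091) was 2.16 and 1.94 on the biological arrays and 4.05 on the technical ones.

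The cytotoxic granule and serpin list had 3 positive and 0 negative calls among 17 tested genes, with a median of -0.07 (-0.18 to 0.00 over the scalings, with 2 to 6 positive calls over the alternatives). Gzmb, the protease granzyme B, was high in all samples, with 11.95 and 11.88 in Tc17 STAT3-/- and 11.08 and 10.89 in Tc17 WT, against 12.07 and 12.09 in Tc1 STAT3-/- and 12.14 and 12.15 in Tc1 WT (0.99 ± 0.13, adjusted p = 0.0038). Nkg7, a granule protein of killer cells, was 10.17 and 10.30 in Tc17 STAT3-/- and 9.38 and 9.08 in Tc17 WT, and 10.40 to 10.48 in Tc1 (0.98 ± 0.16, adjusted p = 0.0093). Serpinb6b, an inhibitor of granule proteases, was 7.13 and 6.70 in Tc17 STAT3-/- and 5.71 and 5.6 in Tc17 WT, but 8.64 to 9.0 in Tc1 (1.20 ± 0.24, adjusted p = 0.020). Gzmb and Nkg7 of Tc17 STAT3-/- cells were thus near the Tc1 level and Serpinb6b was not. The Serpinb6b call was lost in 6 of 22 alternatives, the one without the Tc17 WT technical array included. Prf1, the pore-forming perforin, was lower in STAT3-/- than in WT in both cell types, by 0.61 on the log2 scale in Tc17, a called difference, and by 0.40 in Tc1, not called, and its interaction was -0.21 (adjusted p = 0.49).

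Of 15 tested interferon-stimulated genes, 5 were called, each with a positive interaction (median 0.29, 0.17 to 0.35 over the scalings, with 3 to 7 positive calls over the alternatives). Mndal, a DNA sensor family gene, was 6.24 and 6.43 in Tc17 STAT3-/- samples and 3.76 and 3.52 in Tc17 WT samples, against 5.81 and 6.2 in Tc1 STAT3-/- and 5.51 and 5.71 in Tc1 WT (2.31 ± 0.21, adjusted p = 0.00047). Ly6c2, a surface antigen found on activated CD8 T cells, was 7.5 and 7.18 in Tc17 STAT3-/- samples and 5.62 and 4.58 in Tc17 WT samples, against 9.51 and 9.78 in Tc1 STAT3-/- and 9.36 and 9.24 in Tc1 WT. Its interaction of 1.89 ± 0.40 (adjusted p = 0.025) was 1.37 to 2.41 over the alternatives and lost its call when any sample other than those of Tc17 WT was left out (adjusted p up to 0.105). Gbp3 (1.22), Gbp5 (1.08) and Igtp (0.94), which encode GTPases induced by interferon gamma, were the other calls. The Gbp3 call was lost when the Tc17 WT technical array was left out, and the Gbp5 call in 5 of 22 alternatives. Genes more typical of type I interferon, Irf7, Usp18, Ifit3 and Stat2, were not called, with interactions between -0.33 and 0.20. Isg15, Ifit1, Mx1 and Rsad2 stayed below 5 in every group.

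Surface receptors moved in both directions. Of 15 tested inhibitory receptor and exhaustion genes, 3 were called positive and 2 negative (1 to 4 and 1 to 2 over the alternatives). Havcr2, the inhibitory receptor TIM-3, was 6.16 and 6.17 in Tc17 STAT3-/- samples and 4.64 and 4.48 in Tc17 WT samples, against 8.20 and 8.19 in Tc1 STAT3-/- and 7.79 and 7.96 in Tc1 WT (1.28 ± 0.14, adjusted p = 0.0012). Tigit had 0.98 and Pdcd1, which encodes PD-1, 0.76, a call lost in 11 of 22 alternatives, among them quantile normalization and cyclic loess (adjusted p up to 0.126). Lilrb4a, an inhibitory receptor better known from myeloid cells, was 7.34 and 7.68 in Tc17 STAT3-/- samples and 10.42 and 10.24 in Tc17 WT samples, against 8.61 and 8.03 in Tc1 STAT3-/- and 8.84 and 8.29 in Tc1 WT (-2.58 ± 0.32, adjusted p = 0.0024). For this gene the Tc17 STAT3-/- samples lay below every Tc1 sample. Among 6 tested NK receptor genes, Cd244a, which encodes 2B4, had 1.52, while Klrc1 (-1.46) and Klrd1 (-1.17), which encode the NKG2A and CD94 chains of one inhibitory receptor, and Crtam (-0.68) were negative (1 to 3 negative calls over the alternatives). Klrc1, which passed the level filter only through Tc17 WT, was 3.80 and 4.01 in Tc17 STAT3-/- samples and 5.83 and 5.78 in Tc17 WT samples, against 4.32 and 4.75 in Tc1 STAT3-/- and 5.10 and 4.86 in Tc1 WT. The Crtam call was lost in 9 of 22 alternatives. Among them were the runs without the level filter and with each array's median over all probe sets subtracted. On the technical arrays alone Crtam had -0.07, against -0.90 and -0.83 on biological arrays 1 and 2.

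Chemokine and homing receptors had 4 negative and 0 positive calls among 14 tested genes (3 to 6 and 0 to 1 over the alternatives). Ccr4, a receptor that guides T cells to skin and other barriers, was 7.67 and 7.28 in Tc17 STAT3-/- samples and 8.97 and 8.64 in Tc17 WT samples, and 6.77 to 6.80 in Tc1 (-1.35 ± 0.21, adjusted p = 0.0071). S1pr1, the receptor for exit from lymphoid organs, was 6.23 and 5.77 in Tc17 STAT3-/- samples and 7.21 and 7.39 in Tc17 WT samples, and 6.48 to 6.81 in Tc1 (-1.42 ± 0.23, adjusted p = 0.0092). Cxcr6 had -1.43 and Cxcr5, which passed the level filter only through Tc17 WT, -0.65. The Cxcr5 call was lost in 10 of the 21 alternatives that tested it. Among them were the runs without the level filter, with each array's median over all probe sets subtracted and with another variance model. Itgae, the integrin chain CD103 that TGF-beta induces, had means of 7.71 in Tc17 STAT3-/-, 7.72 in Tc17 WT, 3.83 in Tc1 STAT3-/- and 3.67 in Tc1 WT, and its interaction was not called (-0.16, adjusted p = 0.76). Its wide Tc17 to Tc1 distance was present in both genotypes.

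In the TNF superfamily and costimulation list, 3 of 14 tested genes were called positive and 3 negative, and over the alternatives the negative calls ran from 0 to 4 while the positive ones stayed at 3. Besides Fasl, Tnfsf10, which encodes the death ligand TRAIL, was 6.76 and 6.71 in Tc17 STAT3-/- samples and 5.36 and 5.14 in Tc17 WT samples, and 6.30 to 6.51 in Tc1 (1.47 ± 0.16, adjusted p = 0.0014), and Tnfsf11, which encodes RANKL, had 1.10. Tnfsf14, which encodes the ligand LIGHT, was 4.60 and 4.38 in Tc17 STAT3-/- samples and 5.80 and 5.89 in Tc17 WT samples, and 4.02 to 4.33 in Tc1 (-1.20 ± 0.16, adjusted p = 0.0033). Tnfrsf25, the death receptor DR3, had -1.14 and Cd86 -0.90. Tnfsf14 and Tnfrsf25 passed the level filter only through Tc17 WT. Among genes of the BCL2 family, Bcl2l11, which encodes the pro-death protein BIM, had 1.02 (adjusted p = 0.043) and Bid 0.71 (adjusted p = 0.041), 2 of 11 tested (0 to 3 over the alternatives), and both lost their call under several alternatives, among them quantile normalization.

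Genes of naive and memory T cells, which are quiescence and homing factors, were split with 3 calls in each direction among 14 (1 to 5 positive and 3 to 4 negative over the alternatives). Satb1, a chromatin organiser, was 7.80 and 7.83 in Tc17 STAT3-/- samples and 9.49 and 9.53 in Tc17 WT samples, against 8.74 and 8.59 in Tc1 STAT3-/- and 8.84 and 8.75 in Tc1 WT (-1.56 ± 0.13, adjusted p = 0.00028). Klf3, a Krüppel-like factor, was 5.93 and 6.19 in Tc17 STAT3-/- samples and 4.12 and 4.24 in Tc17 WT samples, against 5.64 and 5.36 in Tc1 STAT3-/- and 5.05 and 4.64 in Tc1 WT (1.23 ± 0.22, adjusted p = 0.015). Bach2 had -1.07, Dapl1 1.32 and Klf2 0.72. Of 12 tested genes of regulatory T cells and the TGF-beta response, Ikzf2 (0.96), an Ikaros family factor, and Lrrc32 (0.89), which encodes the TGF-beta docking receptor GARP, were positive, and Smad3 (-1.14), a transducer of TGF-beta signals, was negative, and the positive calls ran from 0 to 3 over the alternatives. Smad3 was 5.51 and 5.22 in Tc17 STAT3-/- samples and 6.4 and 6.35 in Tc17 WT samples, and 5.45 to 5.75 in Tc1. Foxp3 was not called.

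Among genes where the Tc17 STAT3-/- group stood above the other 3, the largest interactions were those of Clnk, Xcl1, Tmem273, Tph1 and Car2. Clnk, an adaptor of the SLP-76 family, was 6.83 and 7.17 in Tc17 STAT3-/- samples and 3.98 and 4.13 in Tc17 WT samples, against 4.87 and 4.88 in Tc1 STAT3-/- and 4.57 and 4.77 in Tc1 WT (2.75 ± 0.18, adjusted p = 0.00011). Tph1, which makes the serotonin precursor, was 6.64 and 6.80 in Tc17 STAT3-/- samples and 4.48 and 4.61 in Tc17 WT samples, and 4.87 to 5.11 in Tc1 (2.18 ± 0.16, adjusted p = 0.00018). Car2, a carbonic anhydrase, was 5.29 and 5.74 in Tc17 STAT3-/- samples and 3.44 and 3.37 in Tc17 WT samples, and 3.02 to 3.29 in Tc1 (1.99 ± 0.21, adjusted p = 0.00084). Tmem273, a membrane protein gene, was 6.16 and 6.35 in Tc17 STAT3-/- samples, and between 3.45 and 3.97 in the other 6 samples (2.57 ± 0.22, adjusted p = 0.00028). All of them were chosen for standing highest in this group and passed the level filter only through it. Car2 had 3.17 and Tmem273 3.67 on the technical arrays alone.

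Other large positive interactions had Tc17 WT as the low group. Itih5, an inter-alpha-trypsin inhibitor heavy chain, was 8.52 and 8.50 in Tc17 STAT3-/- samples and 5.71 and 5.86 in Tc17 WT samples, and 8.30 to 8.50 in Tc1 (2.58 ± 0.13, adjusted p = 1.6e-05). Pygm, the muscle form of glycogen phosphorylase, was 7.07 and 7.25 in Tc17 STAT3-/- samples and 4.87 and 4.96 in Tc17 WT samples, and 6.85 to 7.06 in Tc1 (2.18 ± 0.15, adjusted p = 0.00013). Dusp6, a phosphatase that switches off ERK, was 8.11 and 8.17 in Tc17 STAT3-/- samples and 6.25 and 6.22 in Tc17 WT samples, and 8.09 to 8.39 in Tc1 (1.88 ± 0.18, adjusted p = 0.00051). In each the Tc17 STAT3-/- samples lay in or near the range of Tc1, although Dusp6 had 0.82 when its probe sets were averaged. Glp1r, a peptide hormone receptor, had 1.81, and its Tc17 STAT3-/- samples, at 6.55 and 6.81, lay above the Tc1 samples.

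Genes in which the Tc17 STAT3-/- group stood below the other 3 included Emp1, Satb1, Cxcr6 and Cd68. Emp1, an epithelial membrane protein gene, was 5.58 and 5.4 in Tc17 STAT3-/- samples and 8.15 and 7.92 in Tc17 WT samples, against 6.73 and 6.95 in Tc1 STAT3-/- and 6.74 and 6.88 in Tc1 WT (-2.58 ± 0.17, adjusted p = 0.00013), with -1.42 when its probe sets were averaged. Cxcr6, a receptor for tissue residence, was 5.27 and 5.42 in Tc17 STAT3-/- samples and 6.89 and 7.08 in Tc17 WT samples, against 7.20 and 6.87 in Tc1 STAT3-/- and 7.39 and 7.10 in Tc1 WT (-1.43 ± 0.20, adjusted p = 0.0050). The Tc17 minus Tc1 difference was -1.69 in STAT3-/- cells, a called difference, and -0.26 in WT cells, not called.

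In a few genes a Tc1 group stood apart. Rgs16, which ends G protein signals, was 7.86 and 7.93 in Tc17 STAT3-/- samples and 7.83 and 7.54 in Tc17 WT samples, against 7.34 and 7.54 in Tc1 STAT3-/- and 8.28 and 8.31 in Tc1 WT. The interaction was 1.06 ± 0.17 (adjusted p = 0.0081), although neither genotype difference was called on its own (0.20 in Tc17, and -0.86 with an adjusted p of 0.072 in Tc1). Gpr55, a lipid-sensing receptor, was 5.05 and 5.22 in Tc17 STAT3-/- samples and 5.0 and 5.02 in Tc17 WT samples, against 4.61 and 4.39 in Tc1 STAT3-/- and 5.41 and 5.03 in Tc1 WT (0.85 ± 0.20, adjusted p = 0.037). Tedc1 (0.86), Antxr2 (0.68) and Marveld2 (0.61) had Tc1 WT above the other groups, Erdr1 (-0.81) had it below, and Wdr78 (-0.74) had Tc1 STAT3-/- above. Of these 7 genes, Rgs16 kept its call in every alternative run, and Gpr55, Tedc1, Antxr2, Erdr1 and Wdr78 lost theirs in at least 1; Marveld2, named to complete the count, was not followed through the alternatives.

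DNA replication genes had small positive interactions. All 25 tested members had a positive interaction, under each of the 5 scalings, with a median of 0.45 (0.33 to 0.52 over the scalings, against 0.12 over all tested genes as deposited), and 6 were called. Mcm5, a subunit of the replicative helicase, was 10.12 and 10.09 in Tc17 STAT3-/- samples and 9.53 and 9.35 in Tc17 WT samples, and 10.04 to 10.22 in Tc1 (0.78 ± 0.13, adjusted p = 0.011). Rpa2, which coats single-stranded DNA, was 8.17 and 8.22 in Tc17 STAT3-/- samples and 7.49 and 7.48 in Tc17 WT samples, and 8.22 to 8.28 in Tc1 (0.75 ± 0.12, adjusted p = 0.0075). Mcm2 (0.64), Mcm3 and the licensing factor Cdt1 (0.56 each) and the ligase Lig1 (0.52) completed the calls. The number called ranged from 0 to 13 over the alternatives. Of 22 tested mitosis genes 0 were called in limma, with 11 at an unadjusted p under 0.05, and the call count ran from 0 to 6 over the alternatives; Aurkb, a mitotic kinase, had 0.51 (adjusted p = 0.10).

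Genes of cholesterol and fatty acid synthesis had 4 positive and 0 negative calls among 23 tested, with a median of 0.38 (0.25 to 0.45 over the scalings) and 22 of 23 positive under each scaling. Dhcr7, the last enzyme of a branch of cholesterol synthesis, was 9.50 and 9.56 in Tc17 STAT3-/- samples and 8.87 and 8.35 in Tc17 WT samples, and 9.20 to 9.41 in Tc1 (0.93 ± 0.22, adjusted p = 0.042). Hmgcs1, an early enzyme of that pathway, was 11.03 and 11 in Tc17 STAT3-/- samples and 10.43 and 10.22 in Tc17 WT samples, and 11.14 to 11.24 in Tc1 (0.61 ± 0.14, adjusted p = 0.031). Cyp51 (0.64) and Insig1 (0.71), a sterol-sensing regulator, were the other calls, and the number called ranged from 0 to 8 over the alternatives. Glycolysis and hypoxia genes had Pygm as the single call among 20 tested and a median of 0.09.

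**Figure D5:**
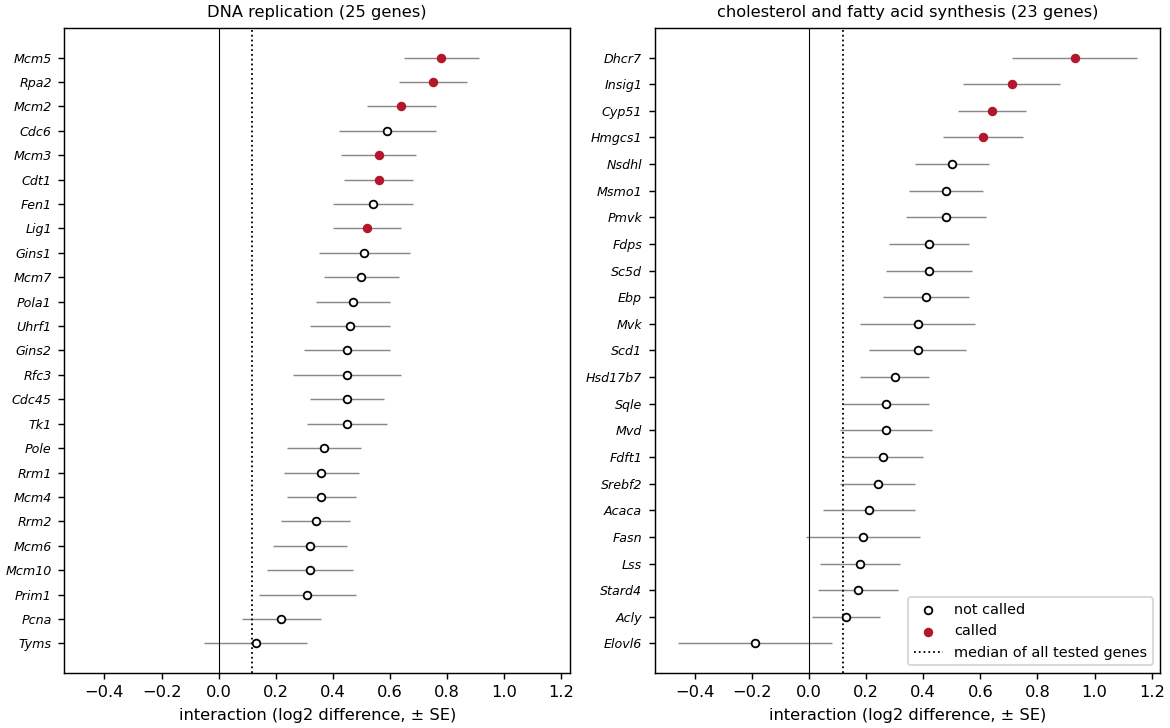
Interaction of each tested DNA replication gene (left) and cholesterol and fatty acid synthesis gene (right), in log2 units with SE bars; filled points were called. All points of the left panel, and all but Elovl6 (-0.19) in the right panel, lie above 0, with most above the dotted median of all tested genes at 0.12.

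CD8 T cell genes were high in every sample and markers of other cells mostly at background. The 10 CD8 T cell identity genes had sample means of 10.09 to 10.17 in Tc17 STAT3-/-, 10.08 to 10.12 in Tc17 WT, 10 to 10.05 in Tc1 STAT3-/- and 10.03 to 10.06 in Tc1 WT, and 0 of 10 were called (0 at an unadjusted p under 0.05). Cd8a lay between 11.12 and 11.54 in all samples and Cd4 between 4.99 and 5.47. Of 8 measured B cell markers, Ms4a1, Cd79a, Pax5, Blk and Fcer2a had group means of at most 4.13, while the other 3 were tested and called. Ighm had 1.70, with 10.76 and 10.96 in Tc17 STAT3-/- samples and 9.12 and 9.07 in Tc17 WT samples, against 10.47 and 10.55 in Tc1 STAT3-/- and 10.44 and 10.45 in Tc1 WT, but 0.46 (adjusted p = 0.0624) when its probe sets were averaged. Cd79b had 0.74 and Ebf1, which passed the level filter only through Tc17 WT, -1.99. The mean of the 8 markers was 4.78 to 4.81 in Tc17 STAT3-/-, 4.79 to 4.81 in Tc17 WT, 4.60 to 4.75 in Tc1 STAT3-/- and 4.66 to 4.69 in Tc1 WT. Of 11 measured myeloid markers 10 stayed at or below 4.24, and Cd68, a lysosomal protein, was called (-1.09); their mean was 3.71 to 3.75 in Tc17 STAT3-/-, 3.84 to 3.88 in Tc17 WT, 3.82 to 3.89 in Tc1 STAT3-/- and 3.73 to 3.84 in Tc1 WT. The part of other cells in the results was not tested.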

How the data were processed

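Gene expression of mouse CD8+ T cells was measured on 12 Affymetrix arrays. The deposited log2 values were made by the authors with RMA and Partek, per the submitters' processing notes; no version was stated. Of 41345 probe sets, 23521 had 1 gene symbol, 1814 several and 16010 none in the platform annotation. The probe set with the highest mean over arrays stood for a gene (22180 genes, 1082 with more than 1 probe set), and 9862 genes with a group mean of at least 5 were tested.

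The technical array of each group was averaged with biological array 2, giving 8 samples and 4 residual degrees of freedom. A linear model per gene, fitted with limma 3.58.1 (R 4.3.3) and moderated by eBayes without trend, gave two-sided p-values, adjusted by Benjamini-Hochberg over all tested genes and called under 0.05. The number of arrays limits the precision. The fit was also run on simulated data. Their noise was independent and of the same size in all samples of a gene, without the added spread of the technical arrays. No conclusion about the calls is drawn from that run.

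Named genes were Stat3, the 12 most positive and 12 most negative called interactions, up to 4 called members per list by size (or the largest uncalled one), and up to 4 for each group that stood apart. Members and lists were chosen with earlier results of these data known. Alternatives changed the scaling, technical arrays, level filter, probe set rule, variance model, block and samples. Plots used Python 3.11.15 and matplotlib 3.10.9.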

Additional observations from a re-analysis of the deposited data

Results flagged for a closer look

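The STAT3-/- minus WT difference itself differed between Tc17 and Tc1 cells, by limma's test of that difference, in 676 genes, 442 of them with a positive interaction and 234 with a negative one. The genes of this kind with the most positive log2 interactions were Clnk (2.75), Xcl1 (2.58), Itih5 (2.58), Tmem273 (2.57), Ifng (2.50), Mndal (2.31), Tph1 (2.18), Pygm (2.18), Car2 (1.99), Ly6c2 (1.89), Dusp6 (1.88) and Glp1r (1.81). Those with the most negative were Il17f (-4.40), Il24 (-4.10), Il17a (-3.87), Cysltr1 (-3.50), Ecm1 (-3.21), Igfbp4 (-3.15), Maf (-3.00), Il21 (-2.92), Slc4a11 (-2.87), Tgm2 (-2.70), Alpk2 (-2.63) and Lif (-2.60). The groups, of 2 samples each, were too small for a search for outlying samples.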

How the results depend on the processing

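All 93 called genes chosen by the naming rule kept their direction in every setting that tested them. Genes given only to complete a count, such as Batf, Irf4, Ikzf3 and Igtp, were not followed as single genes through the settings. There were 22 such settings for most genes and 21 for some, such as Car2, Il3 and Ebf1. Of the 93 genes, 52 were called in every setting that tested them. Against 676 called genes (442 positive, 234 negative), there were 218 when an absolute log2 difference of at least 1 was also required, 384 (203 positive) without the level filter and 1246 (823 positive, 423 negative) without the technical arrays. Leaving out only the Tc17 WT technical array gave 843 calls, 502 positive and 341 negative. Positive calls were 271 and negative ones 371 after the median of the tested genes was subtracted, and positive calls were 291 after cyclic loess. Leaving out each sample in turn gave 244 to 1555 calls, 122 to 1247 positive and 122 to 308 negative; the lone sample left in a group is then assumed to vary like the others. The 587 called genes in which Tc17 WT stood apart were 326 without the level filter, 1011 without the technical arrays and 206 to 1407 with samples left out, a count added after seeing the data.

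The labels do not tie a replicate number to a shared culture, and with 2 numbers the samples' deviations, which correlated at 0.10 to 0.46 between groups (0 to 0.17 over biological arrays alone), do not settle a pairing. With the replicate block 1018 genes were called (676 positive), 887 of them with Tc17 WT apart. With the replicate block within condition 1150 were called (756 positive, 394 negative), 994 with Tc17 WT apart. Eomes (0.66) was called under both (adjusted p = 0.0301 and 0.0283 in limma). The cause of these shifts was not tested. Genes below 5 in every group are near background and were not tested.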
